A study of Mus musculus with 12 samples.

Results

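Genes of glycerolipid synthesis and the lipid droplet, 10 in number, were followed in the mouse neuroblastoma line N2a through 12 RNA-seq libraries. They are Gpam, Lpin1, Lpin2, Lpin3, Dgat1, Dgat2, Plin2, Pnpla3, Pnpla2 and Mgll, chosen by name with earlier results of these data known. All 10 were found among the 24318 gene rows of both deposited tables. The cells received vehicle or extracellular vesicles derived from brain (BDEVs), of either an SE or a CON source, with 4 libraries in each group. By the series title SE means status epilepticus, which is prolonged seizure activity. What CON abbreviates is not explained in the labels, which also state neither the dose and duration of treatment nor the animals behind the vesicles nor whether replicates are separate cultures. The p-values therefore measure only the spread between these libraries, which may be technical. All groups share the same cell line, and in these bulk samples a change in the number of cells expressing a gene and a change in RNA per cell cannot be told apart.

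Cells store fatty acids as triacylglycerol. The chain starts when an acyltransferase adds a fatty acid to glycerol 3-phosphate. Phosphatidate is then formed, and lipins remove its phosphate to give diacylglycerol, from which the DGAT enzymes make triacylglycerol or from which the cell makes phospholipids. Triacylglycerol is kept in lipid droplets coated by perilipins, and lipases break it down step by step. Many genes of lipid synthesis are activated by SREBP transcription factors, which the sterol content of the endoplasmic reticulum holds in check.

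Libraries held an estimated 12400000 to 14300000 fragments in SE-BDEV, 12200000 to 13400000 in CON-BDEV and 13900000 to 14900000 in Vehicle, so that Vehicle was the deepest group. All 7 markers of a neuroblastoma line reported here (Phox2a, Hand2, Gata3, Dbh, Tubb3, Nefl and Stmn2) lay above 1 FPKM. The test against Vehicle was passed by 5 of them, in either direction, in at least 1 vesicle group. These need not be the genes with higher means listed below. Of all genes tested, 0.292% were called higher and 0.628% lower in SE-BDEV, and 1.02% and 1.82% in CON-BDEV. In both vesicle groups the means of Phox2a, Hand2, Gata3, Dbh and Nefl were above Vehicle. Those of Tubb3 and Stmn2 were below it (Stmn2 138 and 138 against 158 FPKM). FPKM is a fragment count scaled by transcript length and library size. Of 7 adipocyte markers, 4 (Lep, Cfd, Fabp4 and Cidec) were listed at 0 in all 12 libraries, and the sum of the 7 reached at most 0.454 FPKM in any library. Summed FPKM of the brain cell markers ranged over 0.744 to 1.09 in SE-BDEV, 0.722 to 0.902 in CON-BDEV and 1.02 to 1.25 in Vehicle for 6 astrocyte genes, and over 16.8 to 19.9, 17.0 to 18.7 and 17.3 to 18.8 for 7 oligodendrocyte genes. For 6 microglial genes the ranges were 1.94 to 1.98, 1.58 to 2.47 and 1.41 to 2.14, for 6 endothelial genes 2.63 to 3.60, 3.17 to 3.65 and 2.95 to 3.53, and for 7 forebrain neuron genes 9.43 to 11.7, 9.34 to 10.6 and 10.1 to 10.9. Of these cell type markers only those averaging 1 FPKM or more entered the test. They were 0 of 7 adipocyte, 0 of 6 astrocyte and 3 of 7 oligodendrocyte genes. The others were 1 of 6 microglial, 1 of 6 endothelial and 2 of 7 forebrain neuron genes. None of those tested passed, and the untested markers were too low to be called. The part of all these markers in the results below was not tested.

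Pnpla3 and Lpin1 were the members that changed: both fell by about the same amount with either kind of vesicle, while the other 7 members tested did not pass. A linear model (limma) of log2(FPKM + 1) was fitted over every gene averaging 1 FPKM or more, and a gene was called at a Benjamini-Hochberg adjusted p under 0.05. Of the members 9 were tested, Lpin3 being too low. In SE-BDEV against Vehicle 2 members fell and 0 rose, where 0.628% of the 11311 genes tested were called lower and 0.292% higher. In CON-BDEV against Vehicle the same 2 members fell and 0 rose, where 1.82% of 11320 genes were called lower and 1.02% higher. Between SE-BDEV and CON-BDEV 0 members and 0 of 11312 genes were called (0%). At an unadjusted p under 0.05 in limma the counts were 0 members and 296 genes (2.62%). Against Vehicle they were 3 members in SE-BDEV and 4 in CON-BDEV, where 14.8% and 19.1% of all genes were under that value. The median difference over the 9 members was −0.05 in SE-BDEV and −0.07 in CON-BDEV on the log2 scale, against 0.01 and 0.00 over all genes. The same Vehicle libraries serve both vesicle comparisons. Because the members were chosen with earlier results of these data known, their counts beside the shares of all genes do not test the set.

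**Figure D1:**
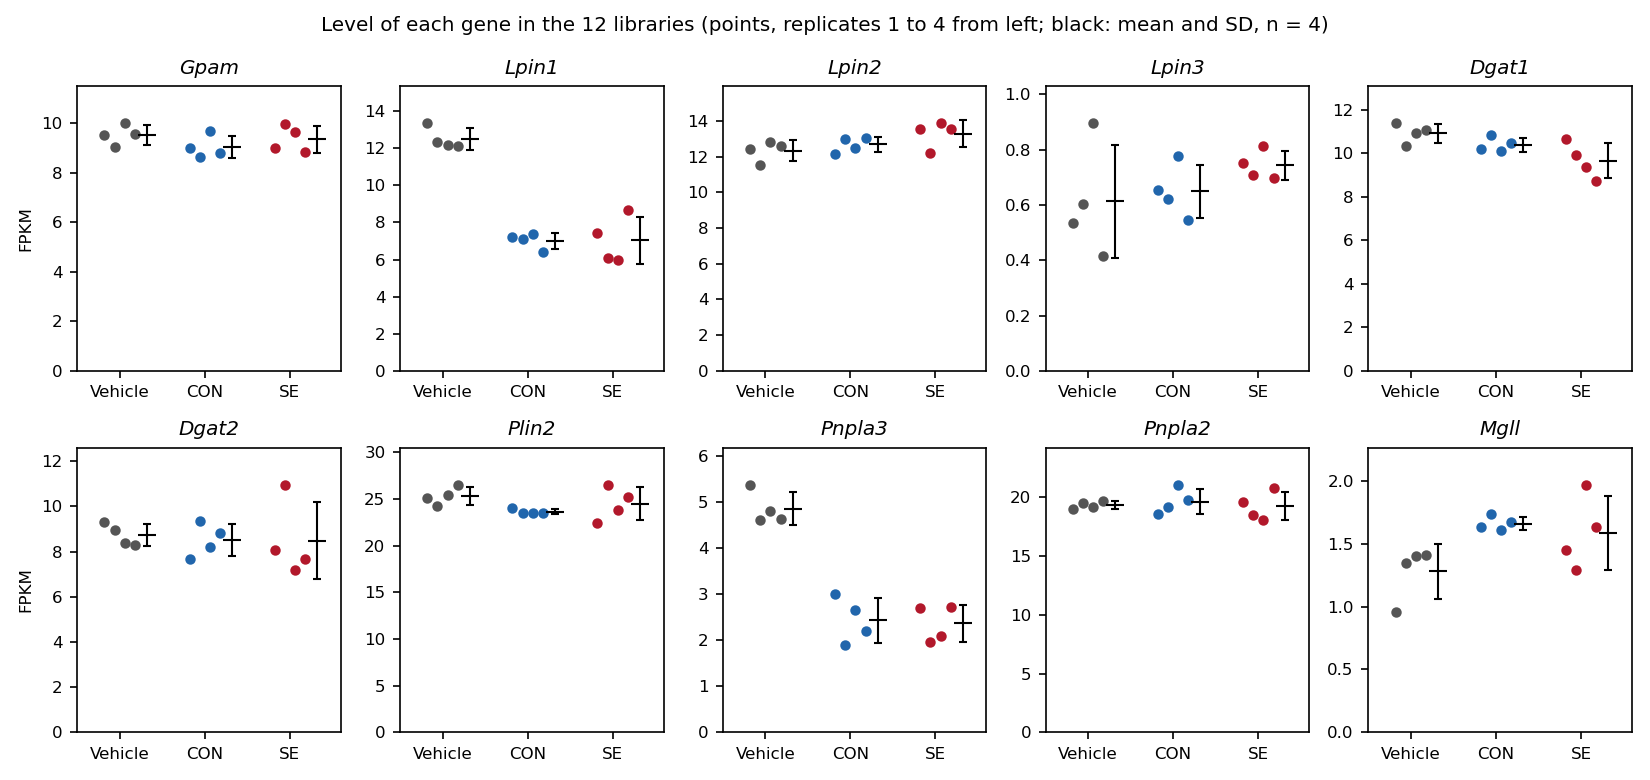
Level in FPKM (vertical axes, each from 0) of the 10 genes in the 12 libraries, by group; points are replicates 1 to 4 from left to right, and black bars give the mean and SD (n = 4). The Lpin1 and Pnpla3 points of both vesicle groups lie below all Vehicle points, at most 8.67 and 2.99 FPKM against at least 12.1 and 4.60.

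Per unit of transcript length, the droplet coat gene Plin2 was the most abundant member in Vehicle (24.3 to 26.5 FPKM), followed by the lipase gene Pnpla2 (19.0 to 19.7). Lpin1 (12.1 to 13.3) and Lpin2 (11.5 to 12.8) overlapped, and so did Gpam (9.03 to 10.005) and Dgat2 (8.31 to 9.32), with Dgat1 (10.3 to 11.4) between these pairs. Pnpla3 (4.60 to 5.37), Mgll (0.958 to 1.41) and Lpin3 (0.417 to 0.896) were the lowest, and of these Mgll and Lpin3 did not overlap. All 10 genes had FPKM above 0 in each of the 12 libraries. In the vesicle groups the order changed at Lpin1, which lay below every Gpam, Dgat1, Dgat2 and Lpin2 value of its own group in CON-BDEV. In SE-BDEV it lay below every Dgat1 and Lpin2 value and below the lowest Gpam value, 8.83 FPKM, with its highest library at 8.67 FPKM. There Lpin1 overlapped Dgat2 (7.19 to 10.96 FPKM).

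Gpam encodes a mitochondrial acyltransferase, one of several enzymes of the step that opens the pathway (mm9 chromosome 19, 55144223 to 55173937). It measured 9.52, 9.03, 10.005 and 9.55 FPKM in Vehicle replicates 1 to 4, 9.02, 8.64, 9.67 and 8.81 in CON-BDEV and 8.99, 9.99, 9.64 and 8.83 in SE-BDEV. The 3 groups overlapped throughout. The fitted difference from Vehicle was −0.02 in SE-BDEV (95% interval −0.14 to 0.09; limma adjusted p = 0.876) and −0.07 in CON-BDEV (−0.17 to 0.04; limma adjusted p = 0.468), so that a fall of the size seen for Lpin1 lay outside both intervals.

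The lipins convert phosphatidate to diacylglycerol, and Lpin1 also acts in the nucleus as a regulator of metabolic genes. Lpin1 (mm9 chromosome 12, 16542474 to 16596576) stood at 13.3, 12.3, 12.2 and 12.1 FPKM in Vehicle replicates 1 to 4. It measured 7.21, 7.12, 7.37 and 6.39 FPKM in CON-BDEV and 7.44, 6.08, 5.99 and 8.67 FPKM in SE-BDEV. Every vesicle library was below every Vehicle library. The mean fell by 43.6% in SE-BDEV (log2 difference −0.76 ± 0.10, standard error; 95% interval −0.97 to −0.55; limma adjusted p = 0.0122) and fell by 43.8% in CON-BDEV (−0.75 ± 0.05, standard error; −0.86 to −0.64; limma adjusted p = 0.000226). In both, the exact two-sided permutation p was 0.0286, the smallest that 4 against 4 libraries allow. The spread was wider in SE-BDEV (coefficient of variation 18.0%) than in CON-BDEV (6.20%) or Vehicle (4.62%). The SE-BDEV call was lost without Vehicle replicate 1, 2 or 3 (limma adjusted p = 0.0689, 0.0571 and 0.0611) while the difference stayed between −0.85 and −0.69 over the 8 fits that each left out 1 library; with no filter on low values its limma adjusted p was 0.0597. The CON-BDEV call held in all 8 such fits (limma adjusted p of at most 0.00199).

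Lpin2, a second phosphatidate phosphatase of the same family (mm9 chromosome 17, 71533317 to 71599158), did not share the fall. It measured 12.4, 11.5, 12.8 and 12.6 FPKM in Vehicle, 12.2, 13.0, 12.5 and 13.0 in CON-BDEV and 13.5, 12.2, 13.9 and 13.5 in SE-BDEV. Of the SE-BDEV libraries 3 of 4 were above all Vehicle libraries, and the difference of 0.10 (95% interval −0.02 to 0.21) did not pass (limma adjusted p = 0.408). In CON-BDEV the difference was 0.04 (−0.06 to 0.13; limma adjusted p = 0.692). Lpin3 (mm9 chromosome 2, 160706405 to 160731736), the least abundant lipin, had a mean of 0.612 ± 0.204 FPKM in Vehicle, 0.649 ± 0.0963 in CON-BDEV and 0.743 ± 0.0523 in SE-BDEV (SD, n = 4 each). These values rest on roughly 20 to 44 fragments per library. The groups overlapped, with an exact permutation p of 0.257 for SE-BDEV and 0.686 for CON-BDEV.

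Lpin1 made up a smaller share of the summed lipin level in each of the 8 vesicle libraries than in any Vehicle library. Lpin1 gave 50.8%, 50.4%, 47.0% and 48.3% of the summed lipin FPKM in Vehicle replicates 1 to 4, which was close to an equal share with Lpin2. It gave 36.0%, 34.3%, 35.7% and 32.0% in CON-BDEV and 34.2%, 32.0%, 29.0% and 37.9% in SE-BDEV. Lpin2 gave 60.5% to 65.3% in CON-BDEV and 59.1% to 67.1% in SE-BDEV. The summed lipin level was 25.4 ± 0.820 FPKM in Vehicle, 20.4 ± 0.407 in CON-BDEV and 21.1 ± 1.67 in SE-BDEV (SD, n = 4 each). These shares are descriptions, since the lower level of Lpin1 by itself sets them apart.

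**Figure D2:**
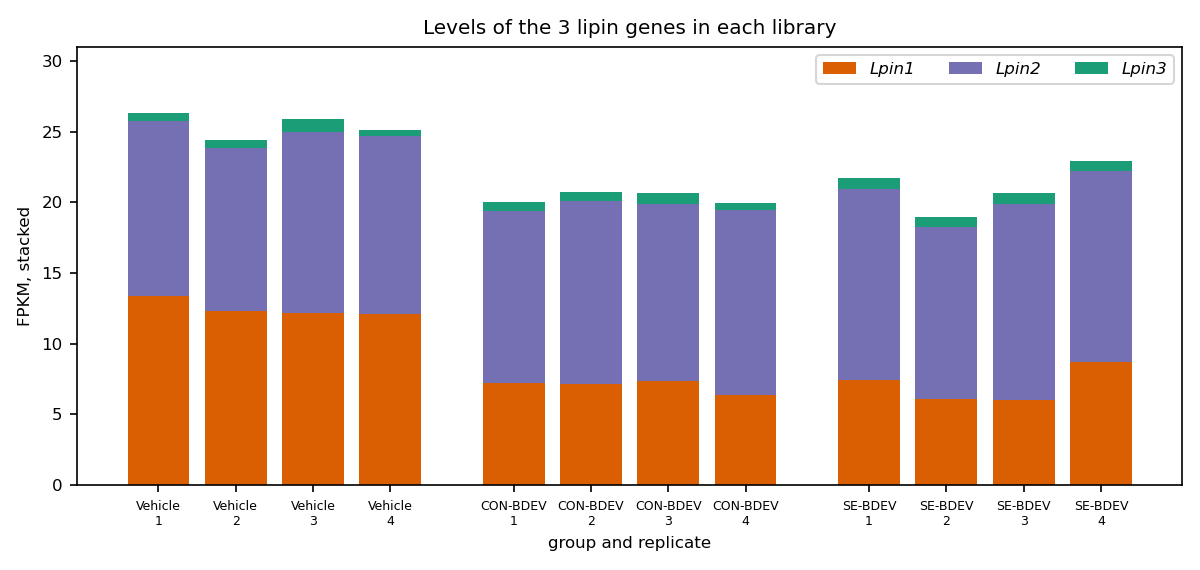
Stacked FPKM (vertical axis, from 0) of Lpin1, Lpin2 and Lpin3 in each library (horizontal axis, group and replicate). The Lpin1 segment makes up 47.0% to 50.8% of a Vehicle bar and 29.0% to 37.9% of a vesicle bar, while the Lpin2 segments span 11.5 to 13.9 FPKM over all 12 bars.

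Dgat1 and Dgat2 encode unrelated enzymes that both add the last fatty acid to make triacylglycerol. Dgat1 (mm9 chromosome 15, 76332444 to 76342248) measured 11.4, 10.3, 10.9 and 11.1 FPKM in Vehicle, 10.2, 10.8, 10.1 and 10.5 in CON-BDEV and 10.6, 9.91, 9.38 and 8.72 in SE-BDEV. Of the SE-BDEV libraries 3 of 4 were below all Vehicle libraries. The difference of −0.16 ± 0.06 (standard error; 95% interval −0.30 to −0.03) did not pass over all genes (limma adjusted p = 0.236; exact permutation p = 0.0571), and in CON-BDEV it was −0.07 (−0.16 to 0.03; limma adjusted p = 0.439). Dgat2 (mm9 chromosome 7, 106302172 to 106331223) had 8.75 ± 0.481 FPKM in Vehicle, 8.51 ± 0.721 in CON-BDEV and 8.48 ± 1.69 in SE-BDEV (SD, n = 4 each). Its SE-BDEV values were 8.08, 10.96, 7.19 and 7.69 FPKM, so that replicate 2 was above and the others below every Vehicle library. The interval of the difference ran from −0.28 to 0.17 in SE-BDEV (limma adjusted p = 0.849) and from −0.17 to 0.10 in CON-BDEV (limma adjusted p = 0.786).

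Plin2, which encodes perilipin 2, the coat protein of droplets in most cells (mm9 chromosome 4, 86302468 to 86315963), measured 25.1, 24.3, 25.4 and 26.5 FPKM in Vehicle. In CON-BDEV it stood at 24.0, 23.5, 23.5 and 23.5 FPKM, all below the lowest Vehicle library, with a difference of −0.09 ± 0.03 (standard error; exact permutation p = 0.0286, the smallest possible; limma adjusted p = 0.166). In SE-BDEV it ranged from 22.4 to 26.5 FPKM and overlapped Vehicle (−0.05; 95% interval −0.17 to 0.07; limma adjusted p = 0.717). In CON-BDEV against Vehicle, 3 members (Lpin1, Pnpla3 and Plin2) were lower without overlap and 1 (Mgll) was higher, where 6.24% and 5.68% of all tested genes were so. In SE-BDEV against Vehicle 2 (Lpin1 and Pnpla3) were lower and 0 higher, beside 4.39% and 5.77% of genes. Between SE-BDEV and CON-BDEV 0 members were without overlap, beside 1.39% of genes.

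Pnpla3 and Pnpla2 encode proteins of the patatin-like family. Pnpla2 is adipose triglyceride lipase, which takes the first fatty acid off triacylglycerol, and Pnpla3 is a droplet-bound relative with hydrolase and acyltransferase activity that is known in liver as an SREBP target. Pnpla3 (mm9 chromosome 15, 83998245 to 84019951) measured 5.37, 4.60, 4.80 and 4.62 FPKM in Vehicle, 2.99, 1.88, 2.65 and 2.21 FPKM in CON-BDEV and 2.70, 1.95, 2.10 and 2.71 FPKM in SE-BDEV. The highest vesicle library lay below the lowest Vehicle library. With the GENCODE M21 transcript length these levels come to roughly 30.2 to 52.6 fragments in CON-BDEV, 32.8 to 51.0 in SE-BDEV and 84.4 to 105.1 in Vehicle, numbers that would scale with the transcript length the authors used. Its mean fell by 51.2% in SE-BDEV (log2 difference −0.80 ± 0.09, standard error; 95% interval −1.003 to −0.604; limma adjusted p = 0.00703) and fell by 49.8% in CON-BDEV (−0.78 ± 0.10, standard error; −0.99 to −0.56; limma adjusted p = 0.00239). Both calls held with each of the 8 libraries left out (limma adjusted p of at most 0.0390 and 0.0131), and with no filter on low values the SE-BDEV call was lost (limma adjusted p = 0.0557). Because 1 FPKM was added before the logarithm, the log2 differences understate the change of this low gene: the authors' deposited table gives log2 fold changes of −1.04 (q = 0.00686) and −0.995 (q = 0.00505) for Pnpla3 and −0.83 in both comparisons for Lpin1 (q = 0.00686 and 0.00505). The other members had q-values of at least 0.119 in the authors' deposited table, which called 1.17% of genes in the SE-BDEV and 1.8% in the CON-BDEV comparison.

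Pnpla2 (mm9 chromosome 7, 148641086 to 148646642) stood at 19.0, 19.5, 19.1 and 19.7 FPKM in Vehicle, 18.5, 19.1, 21.0 and 19.7 in CON-BDEV and 19.5, 18.4, 18.1 and 20.7 in SE-BDEV. The vesicle libraries lay on both sides of the Vehicle libraries. The difference was −0.01 in SE-BDEV (95% interval −0.11 to 0.09; limma adjusted p = 0.949) and 0.02 in CON-BDEV (−0.07 to 0.11; limma adjusted p = 0.839). Pnpla3 amounted to 23.5% to 28.3% of the Pnpla2 level in the Vehicle libraries, 9.87% to 16.2% in CON-BDEV and 10.6% to 13.8% in SE-BDEV. These 2 genes of the same family are shown with the DNA upstream of their starts, because 1 fell and the other gave intervals around 0. The 250 bases before each RefSeq start (GRCm38.p6, plus strand of chr15:84167566-84167815 for Pnpla3 and of chr7:141454938-141455187 for Pnpla2) are given 5′ to 3′. Capitals mark matches, on either strand, to the letters GGGCGG of a GC box, to the box called CCAAT, or to TCACCCC, the core of a sterol regulatory element:
Pnpla3: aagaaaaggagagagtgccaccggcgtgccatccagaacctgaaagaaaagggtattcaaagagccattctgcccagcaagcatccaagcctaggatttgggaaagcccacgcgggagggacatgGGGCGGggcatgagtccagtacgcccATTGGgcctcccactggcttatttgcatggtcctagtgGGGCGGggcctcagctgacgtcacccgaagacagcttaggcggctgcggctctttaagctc
Pnpla2: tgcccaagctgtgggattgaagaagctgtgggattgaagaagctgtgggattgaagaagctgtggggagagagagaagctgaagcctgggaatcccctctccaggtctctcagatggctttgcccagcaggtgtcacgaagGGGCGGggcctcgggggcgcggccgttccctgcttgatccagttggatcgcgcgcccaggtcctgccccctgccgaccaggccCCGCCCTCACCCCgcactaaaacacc

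In the Pnpla3 stretch the GC box letters lie at −125 to −120 and at −61 to −56, and a CCAAT box on the minus strand lies between them, at −99 to −95. The Pnpla2 stretch has GC box letters at −109 and, on the minus strand, at −26, next to the letters TCACCCC at −20 to −14. The search covered windows of 300 bases (250 before and 50 after the start) of 8 members with a RefSeq entry, 13 windows in all. The letters of the full sterol regulatory element, as in the LDL receptor gene, were in none of the 13, and are in 0.0913% of 32851 such windows. The core TCACCCC was found in Pnpla2 and in 1 of the Gpam windows (4.97% of all windows), and the E-box CACGTG in windows of Lpin2, Lpin3, Mgll and Plin2 (7.15%). CCAAT is in 37.4% and GGGCGG in 35.7% of all windows. The single Lpin1 window (GRCm38.p6, start at 16610966 on chromosome 12) had no match to any of these. It belongs to the start of 1 of 6 protein-coding GENCODE M21 transcripts, and 4 of the others start about 21200 bases downstream of it, outside this window. Such matches describe letters, not sites in use.

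Mgll encodes monoacylglycerol lipase, which releases the last fatty acid and also breaks down the endocannabinoid 2-arachidonoylglycerol (mm9 chromosome 6, 88674405 to 88778354). It measured 0.958, 1.34, 1.40 and 1.41 FPKM in Vehicle, 1.63, 1.73, 1.61 and 1.67 FPKM in CON-BDEV and 1.45, 1.29, 1.97 and 1.63 FPKM in SE-BDEV. All CON-BDEV libraries were above all Vehicle libraries, with a difference of 0.23 ± 0.09 (standard error; 95% interval 0.04 to 0.42; exact permutation p = 0.0286, the smallest possible; limma adjusted p = 0.188). In SE-BDEV 3 of 4 libraries were above all Vehicle libraries (0.18; −0.06 to 0.42; limma adjusted p = 0.464). It is thus a member with higher values in both vesicle groups that passed in neither, at roughly 57 to 97 fragments per library. Without Vehicle replicate 1 its difference was 0.11 in SE-BDEV and 0.16 in CON-BDEV, and without SE-BDEV replicate 3 it was 0.11 in SE-BDEV. In GENCODE M21 a gene on the opposite strand overlaps each of Gpam, Lpin3, Mgll and Pnpla3, and how the authors' counting used strand is not stated in these sources, so these 4 levels are uncertain to that extent. Genes on the same strand also overlap Lpin2 (the long noncoding Gm26561), Pnpla3 (Gm49513 and a microRNA gene) and Mgll (3 models), and how fragments there were assigned was not tested.

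**Figure D3:**
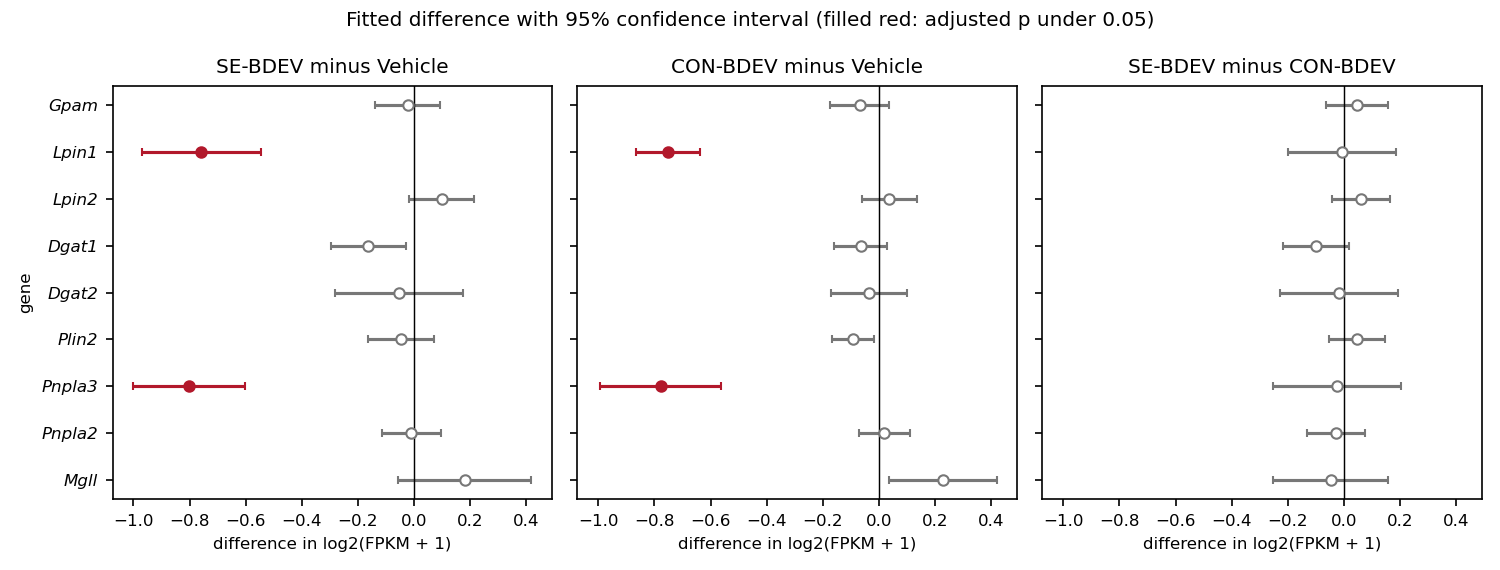
Fitted difference in log2(FPKM + 1) (horizontal axis) with its 95% confidence interval for the 9 tested genes (vertical axis) in the 3 comparisons; filled red points have an adjusted p under 0.05. Lpin1 and Pnpla3 lie between −0.80 and −0.75 in both vesicle comparisons, and in the third every interval spans 0.

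The direct comparison asked whether the source of the vesicles mattered for these genes. Pnpla3 averaged 2.37 ± 0.397 FPKM in SE-BDEV and 2.43 ± 0.486 in CON-BDEV, and Lpin1 7.05 ± 1.27 and 7.02 ± 0.435 (SD, n = 4 each). The differences between SE-BDEV and CON-BDEV were −0.03 (95% interval −0.25 to 0.20) for Pnpla3 and −0.01 (−0.20 to 0.18) for Lpin1, each with a limma adjusted p of 1.00. The intervals leave room for differences of up to 0.25 on the log2 scale and do not reach the size of the fall from Vehicle. Dgat1 had the largest difference of the 9, −0.10 (−0.22 to 0.02), followed by Lpin2 at 0.06 (−0.04 to 0.17), both with a limma adjusted p of 1.00. Lpin3 differed by 0.08 (exact permutation p = 0.143).

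Other genes of glycerolipid metabolism were taken from lists by role, 78 genes in the tables of which 62 were tested. These lists too were chosen with earlier results of these data known. In SE-BDEV 1 of the 62 fell (Acsl4) and 0 rose, beside 0.628% of all genes called lower, and 11 were at an unadjusted p under 0.05 in limma, beside 14.8% of all genes. In CON-BDEV 5 fell (Acsl4, Acsl3, Pcyt2, Bscl2 and Ldah) and 0 rose, beside 1.82% of all genes called lower, and 12 were at an unadjusted p under 0.05, beside 19.1%. Between SE-BDEV and CON-BDEV 0 passed (1 at an unadjusted p under 0.05 in limma). With 1 library left out the SE-BDEV count was 0 without any 1 Vehicle library, 2 without SE-BDEV replicate 4 and 3 without SE-BDEV replicate 2, and the CON-BDEV count was 2 or 3 without CON-BDEV replicate 3 or 4 or any 1 Vehicle library. With all 12 libraries in 1 fit, 1 of the 5 kept its CON-BDEV call (Acsl4). The median difference of the 62 genes was −0.00 in SE-BDEV and 0.00 in CON-BDEV, beside 0.01 and 0.00 over all genes.

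Fatty acids are activated by long-chain acyl-CoA synthetases before use. Of 5 long-chain acyl-CoA synthetase genes, 1 fell in SE-BDEV and 2 fell in CON-BDEV, with medians of −0.12 and −0.11. Of all genes 0.628% and 1.82% were called lower there. Acsl4, which prefers arachidonate, measured 121, 117, 113 and 114 FPKM in Vehicle, 92.3, 103, 98.9 and 92.5 in CON-BDEV and 98.1, 99.1, 93.8 and 100.1 in SE-BDEV. No vesicle library reached the Vehicle range. The difference was −0.25 ± 0.04 in SE-BDEV (standard error; limma adjusted p = 0.0158) and −0.26 ± 0.04 in CON-BDEV (standard error; limma adjusted p = 0.00660). The SE-BDEV call was lost without any 1 of Vehicle replicates 1 to 4 (limma adjusted p up to 0.0764) or with no filter on low values (0.0557), and the CON-BDEV call held in all 8 such fits. Acsl3, a synthetase found on nascent droplets, fell in CON-BDEV from 37.0 ± 0.684 to 32.6 ± 1.21 FPKM (SD, n = 4 each; −0.18, limma adjusted p = 0.0212) and lost that call without CON-BDEV replicate 4 or Vehicle replicate 1, 2 or 3 (up to 0.0737); its q in the authors' deposited table was 0.241. In SE-BDEV its difference was −0.23 (limma adjusted p = 0.171). Acsl5 differed by −0.01 and −0.05 and did not pass.

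In the branch that leads to phospholipids, 26 genes were tested. At an unadjusted p under 0.05 in limma there were 6 in SE-BDEV and 4 in CON-BDEV, where 14.8% and 19.1% of all genes were. In SE-BDEV 0 passed and in CON-BDEV 1 fell, where 0.628% and 1.82% of all genes were called lower. That gene was Pcyt2, which encodes the enzyme that makes CDP-ethanolamine for phosphatidylethanolamine. Its Vehicle values were 30.2, 33.0, 33.0 and 30.8 FPKM, against 23.8, 22.6, 23.2 and 19.3 in CON-BDEV and 24.5, 15.6, 21.0 and 26.9 in SE-BDEV. Both vesicle groups lay below Vehicle without overlap. The difference was −0.50 ± 0.06 in CON-BDEV (standard error; limma adjusted p = 0.00206) and held in all 8 fits with 1 library left out, but with all 12 libraries in 1 fit the limma adjusted p was 0.0690. In SE-BDEV it was −0.54 ± 0.13 (standard error; limma adjusted p = 0.0902), while the authors' deposited table gives a q of 0.00686 there. The abundant Dgkz, Ptdss1 and Ppap2a, for a diacylglycerol kinase, a phosphatidylserine synthase and a lipid phosphatase, had differences from 0.01 to 0.14 that did not pass.

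Of 10 tested genes of droplet proteins, 0 passed in SE-BDEV and 2 fell in CON-BDEV, where 0.628% and 1.82% of all genes were called lower. In each vesicle group 2 were at an unadjusted p under 0.05 in limma, beside 14.8% and 19.1% of all genes. Bscl2 encodes seipin, which shapes new droplets at the endoplasmic reticulum, and Ldah a droplet-associated hydrolase. Bscl2 fell in CON-BDEV from 35.0 ± 0.346 to 30.9 ± 1.80 FPKM and Ldah from 50.7 ± 1.29 to 45.2 ± 1.86 FPKM (SD, n = 4 each; log2 differences −0.18 and −0.16; limma adjusted p = 0.0433 and 0.0387). In SE-BDEV they differed by −0.17 each (limma adjusted p = 0.0546 and 0.218). Each of these CON-BDEV calls was lost without CON-BDEV replicate 3 or 4 or any 1 of the 4 Vehicle libraries (limma adjusted p up to 0.123), with all 12 libraries in 1 fit (0.0517 and 0.192), with no filter (0.0850 and 0.0673) and without the trend (0.0817 and 0.0792), and for Bscl2 with a filter of 0.1 FPKM (0.0531). The authors' deposited table gives q = 0.334 for Bscl2 and 0.241 for Ldah. Aup1, the most abundant gene of the list, differed by −0.01 and 0.03.

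The remaining steps gave 0 calls in either vesicle group. They were 11 genes of glycerol phosphate acylation (0 and 2 at an unadjusted p under 0.05 in SE-BDEV and CON-BDEV, limma), 8 of lipolysis (0 and 1) and 2 of the phosphatase that activates lipins (0 and 0). Of all genes 14.8% and 19.1% were under that value. Agpat1, Agpat6 and Agpat5, the most abundant acyltransferases, had means between 36.3 and 67.3 FPKM in every group and differences from −0.01 to 0.03. Abhd5, the activator of adipose triglyceride lipase, stood at 14.2 ± 0.830 FPKM in Vehicle, 14.6 ± 0.536 in CON-BDEV and 15.0 ± 1.58 in SE-BDEV (SD, n = 4 each). Ctdnep1, the phosphatase that acts on lipin, differed by −0.03 in both comparisons.

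Of 10 tested regulators of lipid genes, 2 fell in SE-BDEV and 3 in CON-BDEV, and 0 rose, where 0.628% and 1.82% of all genes were called lower. Srebf2, which encodes SREBP2, measured 128, 123, 127 and 126 FPKM in Vehicle, 95.1, 88.1, 98.1 and 81.5 in CON-BDEV and 92.4, 70.4, 83.1 and 104.5 in SE-BDEV. The difference was −0.53 in SE-BDEV and −0.47 in CON-BDEV (limma adjusted p = 0.0299 and 0.000954). Insig1, which retains SREBP in the endoplasmic reticulum and is itself an SREBP target, also fell in both groups (−0.92 and −0.77; limma adjusted p = 0.0280 and 0.00440). Srebf1, the gene of SREBP1, fell in CON-BDEV from 82.7 ± 1.35 to 71.2 ± 4.55 FPKM (SD, n = 4 each; −0.21, limma adjusted p = 0.0252) and differed by −0.30 in SE-BDEV (limma adjusted p = 0.0788). The SE-BDEV calls of Srebf2 and Insig1 were lost without any 1 Vehicle library or SE-BDEV replicate 3, and for Srebf2 also without SE-BDEV replicate 1 (limma adjusted p up to 0.109 and 0.107), and both with no filter on low values (0.108) or without the mean-variance trend (0.0598 and 0.0557). Srebf1 lost its CON-BDEV call without any 1 Vehicle library (up to 0.0857), with all 12 libraries in 1 fit (0.152), with no filter (0.0663) and without the trend (0.0643), and its q in the authors' deposited table was 0.224, and the other CON-BDEV calls held in all 8 fits.

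**Figure D4:**
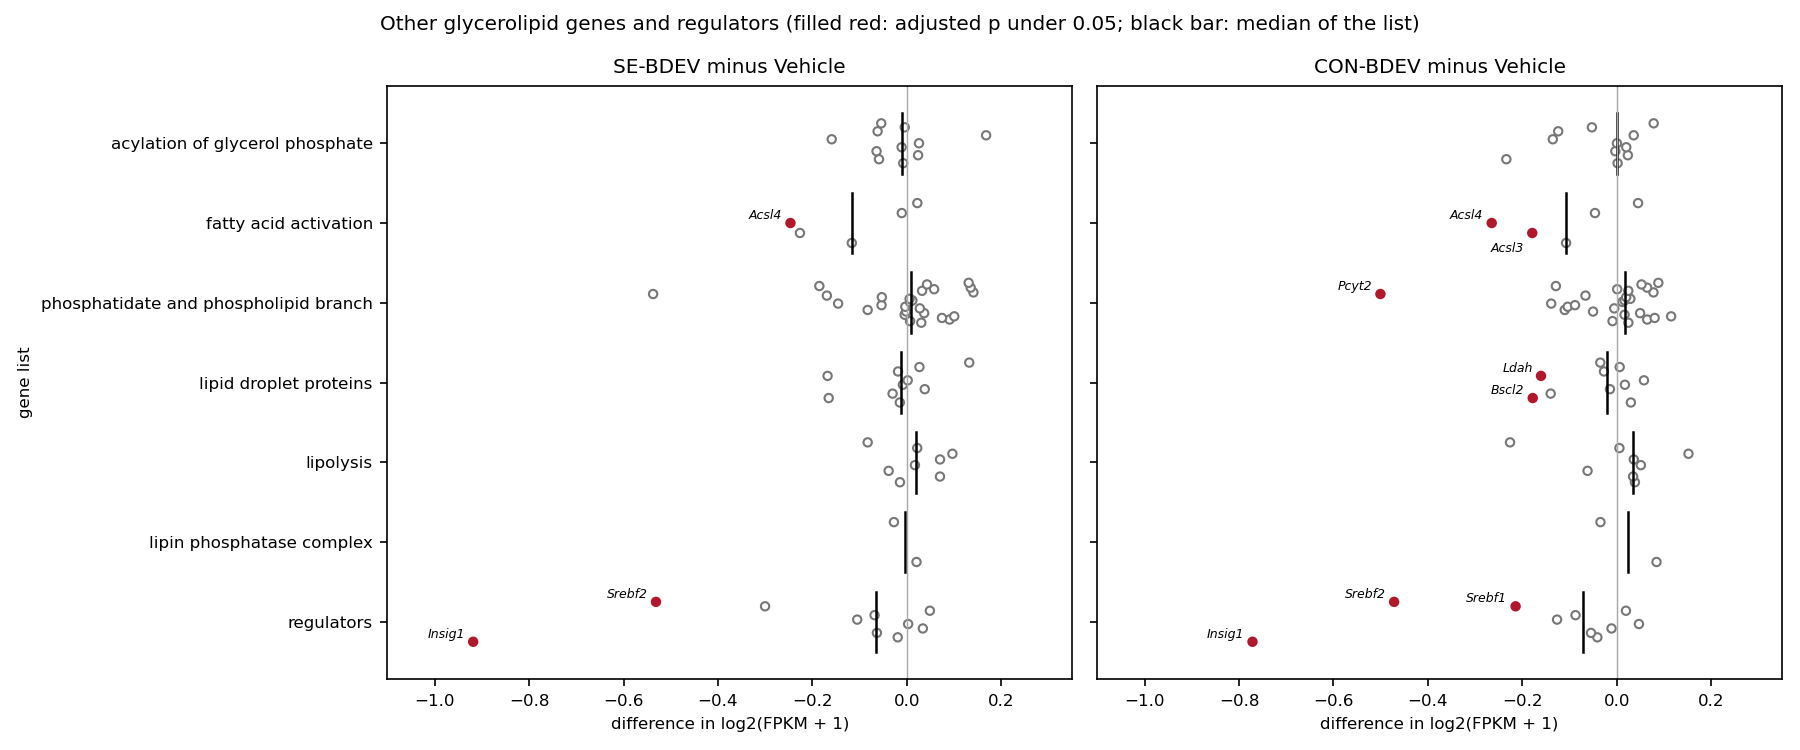
Fitted difference from Vehicle in log2(FPKM + 1) (horizontal axis) for each tested gene of 7 lists (vertical axis), SE-BDEV on the left and CON-BDEV on the right; filled red points have an adjusted p under 0.05, and black bars are list medians. The points with calls all lie to the left of 0, from −0.92 (Insig1) to −0.16 (Ldah), and the medians lie between −0.12 and 0.04.

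Within SE-BDEV, replicates 1 and 4 had the 2 highest values of the group for Pnpla3, Lpin1, Pcyt2, Acsl3, Ldah, Bscl2, Srebf1, Srebf2 and Insig1. This pattern was picked out after the values were seen. For Insig1 the values were 39.2 and 41.3 FPKM against 21.4 and 33.9 in replicates 2 and 3. The estimated depths of replicates 1 to 4 were 13100000, 12800000, 12400000 and 14300000 fragments, so the same 2 libraries were also the deepest of the group, and the part of depth in this order was not tested. Dgat2, Plin2 and Gpam, by contrast, were highest in SE-BDEV replicate 2. The order did not separate the falling genes from the others. Pnpla2, which did not fall, was also highest in replicates 1 and 4 (19.5, 18.4, 18.1 and 20.7 FPKM in replicates 1 to 4). Acsl4, which was called lower, measured 98.1, 99.1, 93.8 and 100.1 FPKM and was highest in replicates 4 and 2.

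The genes whose levels followed those of the falling members most closely were sought over the 12 libraries among 11312 genes, by Pearson correlation of log2(FPKM + 1). The correlations are descriptions of likeness, since the libraries share the contrast with Vehicle. For Lpin1 they were Fdps (0.990), Slc25a1 (0.988), Msmo1 (0.986), Lss (0.985) and Sbf2 (0.984). Fdps, Msmo1 and Lss encode enzymes of sterol synthesis and Slc25a1 the mitochondrial citrate carrier. Sbf2 had means of 21.7 FPKM in SE-BDEV and 21.6 in CON-BDEV against 23.7 in Vehicle, so a small difference was enough for such a correlation. For Pnpla3 they were Lss (0.981), Stard4 (0.972), Slc25a1 (0.971), Sgsm1 (0.970) and Anxa2 (0.970), of which Stard4 encodes a sterol carrier and Anxa2 a membrane-binding annexin. Lpin1 and Pnpla3 correlated at 0.962 with each other, rank 22 on the list of Lpin1 and rank 9 on that of Pnpla3.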

How the data were processed

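Per the submitters' processing notes, the authors used TopHat2, Cuffdiff and the mm9 build; versions, annotation and strand setting were not given in the sources used here. The authors deposited FPKM per gene and library in 2 tables (SE-BDEV with Vehicle, CON-BDEV with Vehicle). A table for each comparison gives, per the file headers, each group's FPKM, the log2 fold change, the p-value and the q-value. Over genes above 1 FPKM, the median ratio of a Vehicle library between both tables was at most 0.0335% off 1. Single genes lay at most 0.116% off that ratio. SE-BDEV and CON-BDEV were therefore compared in 1 fit of 12 libraries with the mean Vehicle value. The vehicle comparisons stayed within their tables.

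Models on log2(FPKM + 1) were fitted in limma 3.58.1 (R 4.3.3) to genes averaging 1 FPKM or more. Moderated two-sided tests allowed for a trend of variance with level, and p-values were adjusted by Benjamini-Hochberg over all genes of a fit. The script was tested on simulated data. Single genes were also compared by exact permutation tests. Depth was estimated from FPKM up to 0.05 of genes with transcripts of 1500 to 8000 bases in GENCODE M21, and is approximate. Pseudocount, filter, scaling, spread estimate, samples in the fit, replicate block and each library left out were varied. Named genes are the 10 members, every list gene that passed, and up to 3 of highest mean per list; further genes are the 5 most correlated with each member called in both vesicle comparisons. The members and lists were chosen with earlier results of these data known. Promoter sequences are RefSeq's (GRCm38.p6), and mm9 positions are the deposited ones. A neuroblastoma marker chosen at the outset is not reported here.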

Additional observations from a re-analysis of the deposited data

Results flagged for a closer look

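In each group of 4 libraries, the gap between the highest or lowest value and its neighbour was set against the whole range of the group and compared with Dixon's 95% critical value. Of 30 groups (10 genes in 3 groups), 3 exceeded it, where chance gives about 1 in 20. Lpin1 was high in Vehicle replicate 1 at 13.3 FPKM (ratio 0.841), with the other Vehicle libraries at 12.1 to 12.3. Mgll was low in the same library at 0.958 FPKM (0.856), the others lying at 1.34 to 1.41. Plin2 was high in CON-BDEV replicate 1 at 24.0 FPKM (0.891), in a group whose other values were 23.5 in each library.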

How the results depend on the processing

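Of the 10 members, 2 passed in each vesicle comparison under every alternative run except SE-BDEV with no filter on low values, where 0 of 17444 genes passed in limma (2021 at an unadjusted p under 0.05), and SE-BDEV with 1 library left out, where 1 to 2 passed. In CON-BDEV 2 passed with any library left out, and between SE-BDEV and CON-BDEV 0 passed (limma, 205 to 581 genes at an unadjusted p under 0.05 in the fits that kept all of both vesicle groups). The replicate numbers shared by the groups did not pair the libraries throughout (correlations of same-numbered deviations from −0.123 to 0.298). Against Vehicle, each same-numbered value was below the highest with another number. Between SE-BDEV and CON-BDEV, replicates 1 and 2 gave 0.196 and 0.298, above their highest with another number (0.103 and 0.0315). Replicates 3 and 4 gave −0.0738 and −0.123, below theirs (0.181 and 0.0894). Pairing of the 2 vesicle groups is therefore not settled. With a replicate block Pnpla3 and Lpin1 kept their calls, Acsl3, Bscl2, Ldah and Srebf1 lost theirs in CON-BDEV (limma adjusted p = 0.0544, 0.0880, 0.0658 and 0.0553), and the calls over all genes went from 104 to 48 in SE-BDEV and from 321 to 135 in CON-BDEV. Of the other glycerolipid genes, 1 passed in SE-BDEV and 5 in CON-BDEV; these became 2 and 1 with all 12 libraries in 1 fit, 0 and 3 with no filter, 2 and 2 in the authors' deposited table, 2 in SE-BDEV under median scaling, 3 in CON-BDEV without the mean-variance trend, 2 in CON-BDEV with the replicate block, and 0 to 3 and 2 to 6 with 1 library left out. Calls over all genes were 171 and 133 with 12 libraries in 1 fit, 0 and 176 with no filter, 183 in CON-BDEV without the trend, and 5 to 315 and 134 to 556 with 1 library left out. In SE-BDEV they were 5 to 16 without any 1 Vehicle library, 55 and 50 without SE-BDEV replicate 1 or 3 and 315 without replicate 2; in CON-BDEV they were 134 to 163 without any 1 Vehicle library, 201 and 156 without CON-BDEV replicate 3 or 4 and 556 without replicate 1. The cause was not tested. The sign of uncalled differences near 0 turned when single libraries were left out. Against Vehicle the ranges were −0.052 to 0.0014 for Gpam, −0.17 to 0.011 for Dgat2 and −0.046 to 0.017 for Pnpla2 in SE-BDEV, and −0.077 to 0.0065 for Dgat2 and −0.014 to 0.044 for Pnpla2 in CON-BDEV. Between SE-BDEV and CON-BDEV they were −0.10 to 0.056 for Lpin1, −0.13 to 0.047 for Dgat2, −0.11 to 0.051 for Pnpla3, −0.064 to 0.0044 for Pnpla2, −0.12 to 0.0083 for Mgll, −0.096 to 0.019 for Acsl3, −0.0031 to 0.048 for Acsl4, −0.020 to 0.046 for Bscl2, −0.25 to 0.053 for Insig1, −0.046 to 0.050 for Ldah, −0.14 to 0.11 for Pcyt2 and −0.15 to 0.039 for Srebf2. The 4 libraries per group limit the precision, and Pnpla3, Lpin3 and Mgll rest on few fragments.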
